A study of Mus musculus with 10 samples.

Results

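Scavenger receptors are proteins of unrelated folds, mostly at the cell surface, that bind modified lipoproteins, microbial surfaces, dying cells or matrix fragments and carry them into the cell. The 8 genes described here are Scara5, Scara3, Msr1 and Marco of the collagen-like class, Scarb1, the receptor for high-density lipoprotein, Stab1, the endothelial and macrophage receptor stabilin-1, Mrc1, the macrophage mannose receptor CD206, and Cd163, the macrophage receptor for haptoglobin and haemoglobin. They were taken by symbol from the 17737 genes listed in the count table, all 8 were listed, and the list was drawn up partly because Scara5 was much lower in one group. The difference between the groups is therefore given for these genes as a description without a p, and the calls of the fit over all genes are only counted, beside the share of all genes called. All tumors were grown from B16-F10, a pigmented mouse melanoma line, implanted under the skin of the right flank of C57BL/6 mice. In one group the implanted cells overexpressed IL-18 WT, and in the other IL-18 D69A, in which alanine replaces an aspartate. The tissue is from day 11, with 5 tumors per group, numbered 2 to 6 for WT and 1 to 5 for D69A. The labels do not say whether each line was 1 clone or a pool, and every tumor carried an overexpression construct, so no tumor without one serves as a baseline. The comparison asks how receptor transcripts in the whole tumor differ with the form of IL-18 that the melanoma cells carried.

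Macrophages use several of these receptors at once, and Mrc1 and Cd163 are widely used as markers of tissue-resident or alternatively activated macrophages. Msr1 and Marco bind acetylated or oxidized low-density lipoprotein and bacterial surfaces. Scara5 and Scara3 are known mainly from fibroblasts and epithelia, where Scara5 takes up ferritin and Scara3 is induced by oxidative stress. Stab1 is made by macrophages and by the endothelium of sinusoids and lymphatic vessels, and Scarb1 by many cells that take up cholesterol, among them hepatocytes, steroid-making cells and tumor cells.

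Libraries held between 25904345 and 37578722 counts, and levels are given as CPM, the counts scaled to a library of 1000000 with TMM factors. Il18 itself was at 29.6 ± 2.56 CPM in the WT group and 27.3 ± 2.41 CPM in the D69A group (SD over n = 5 per group), with a log2 fold change of -0.12 and an SE of 0.08 (edgeR's quasi-likelihood test, adjusted by Benjamini-Hochberg, adjusted p = 0.2656). The summed CPM of 12 pigment cell markers, which check the melanoma label, lay between 17166.7 and 21329.9 in WT and between 25345.0 and 32484.8 in D69A tumors. Host cells were present in every tumor: 14 macrophage markers summed to 899.5 to 2282.7 CPM in the WT group and 562.2 to 845.8 CPM in D69A, 12 fibroblast markers to 2928.6 to 7331.2 and 711.7 to 1880.6 CPM, and 11 endothelial markers to 257.5 to 346.5 and 165.0 to 226.3 CPM. None of these lists had a member at 0 in all tumors. Summed skeletal muscle markers ranged from 16.8 to 2146.6 CPM in the WT group and from 16.1 to 739.4 CPM in D69A tumors. The mean sums were 762.2 ± 971.2 and 189.9 ± 312.1 CPM (SD over n = 5 per group). Of the 14 markers 0 passed the threshold between groups, with a median log2 fold change of -1.97, so the lack of calls does not show equal muscle content. In bulk tissue, fewer cells of a type and less RNA per cell cannot be told apart. The labels do not tie each tumor to a mouse of its own, and a p-value here speaks of the spread between the sequenced samples alone.

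Of the 8 receptor genes, all 8 passed the filter on low counts, 6 were called lower in D69A tumors, 1 (Scarb1) was called higher and 1 (Stab1) was not called. Of all 13798 tested genes, 24.7% were called lower and 18.8% higher, 43.5% in all. For 5 receptors every WT tumor lay above every D69A tumor, for Scarb1 the order was the opposite, and for Marco and Stab1 the groups overlapped. Over all tested genes 17.4% were separated with WT above, 12.0% with D69A above and 29.4% either way. The median log2 fold change of the 8 genes was -1.44, against 0.00 for all tested genes. Because the genes were chosen on this contrast, nothing further is read from these counts.

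**Figure D1:**
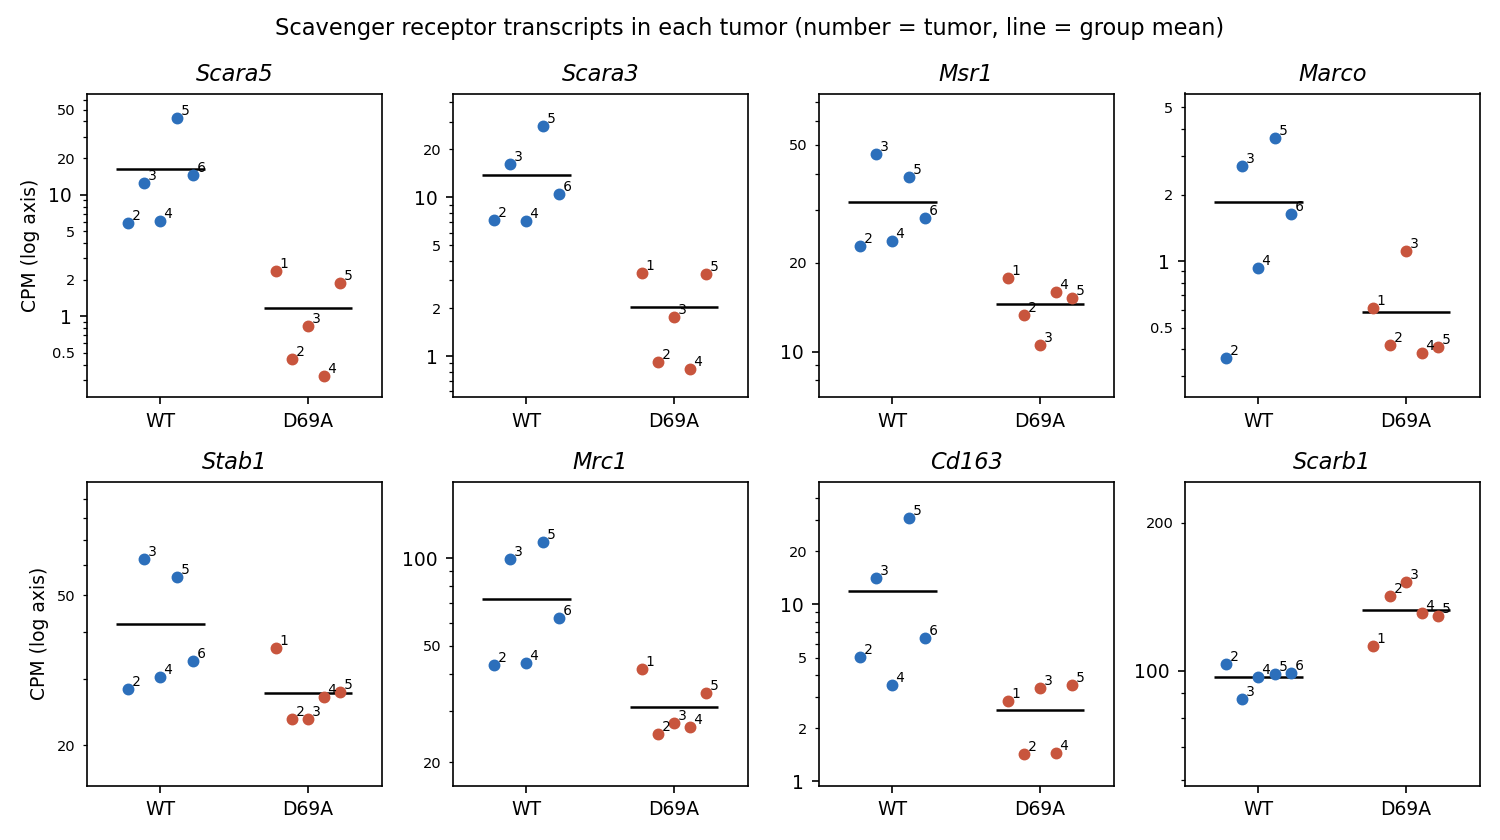
CPM of each scavenger receptor gene in every tumor, on a log axis of its own for each gene; points are tumors with their numbers, and black lines are the group means (n = 5 each). WT tumor 5 is the highest for Scara5, Scara3, Marco, Mrc1 and Cd163, WT tumor 3 for Msr1 and Stab1, and only Scarb1 has all D69A tumors above all WT tumors.

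Scara5, the ferritin receptor (chromosome 14, 65666403 to 65764826, plus strand, mm10), was the receptor with the largest difference. In WT tumors 2 to 6 it was at 5.81, 12.6, 6.11, 42.5 and 14.6 CPM, and in D69A tumors 1 to 5 at 2.35, 0.45, 0.84, 0.33 and 1.87 CPM. WT tumor 5 stood well above the other WT tumors, and the lowest WT tumor was still above the highest D69A tumor. The means were 16.3 ± 15.1 and 1.17 ± 0.90 CPM (SD over n = 5 per group), 13.86-fold lower in D69A, with a log2 fold change of -3.79 and an SE of 0.71. Without WT tumor 5 the log2 fold change was -3.02, or 8.11-fold lower. Of the tested genes 0.1% had a lower log2 fold change. This rank is a description only, because the large fall of Scara5 was part of why the list was drawn up. These levels rest on 11 to 1586 counts per tumor.

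Scara3, an intracellular member of the same class induced by oxidative stress (chromosome 14, 65919394 to 65953935, minus strand), ordered the D69A tumors as Scara5 did and was also highest in WT tumor 5. Its levels were 7.23, 16.2, 7.12, 28.1 and 10.6 CPM in WT tumors 2 to 6 and 3.34, 0.92, 1.77, 0.83 and 3.28 CPM in D69A tumors 1 to 5. D69A tumors 2 and 4 were the lowest, and the groups did not overlap. The means were 13.9 ± 8.80 and 2.03 ± 1.23 CPM (SD over n = 5 per group; 6.8-fold lower in D69A, log2 fold change -2.77, SE 0.52).

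Msr1, the macrophage scavenger receptor CD204 (chromosome 8, 39581685 to 39642673, minus strand), varied less between tumors. It was at 22.7, 46.6, 23.6, 39.0 and 28.3 CPM in WT tumors 2 to 6 and at 17.7, 13.3, 10.5, 15.9 and 15.2 CPM in D69A tumors 1 to 5. WT tumors 3 and 5 were high, and all D69A tumors lay below all WT tumors. The means of 32.0 ± 10.4 and 14.5 ± 2.75 CPM (SD over n = 5 per group) differed by 2.21-fold (log2 fold change -1.14, SE 0.22).

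Marco, which binds bacteria and inhaled particles on subsets of macrophages (chromosome 1, 120474538 to 120505024, minus strand), was the scarcest member, with 13 to 135 counts per tumor. Its levels were 0.36, 2.71, 0.93, 3.61 and 1.64 CPM in the WT group and 0.61, 0.42, 1.11, 0.38 and 0.41 CPM in D69A tumors. WT tumor 2 was below every D69A tumor and D69A tumor 3 was above WT tumors 2 and 4, so the groups overlapped. The log2 fold change was -1.65 with an SE of 0.57 (1.85 ± 1.32 against 0.587 ± 0.307 CPM; SD over n = 5 per group; 3.15-fold lower in D69A). Leaving out 1 tumor at a time ended its call in 6 of 10 fits, including those without WT tumor 3, WT tumor 5 or D69A tumor 1, with log2 fold changes from -1.96 to -1.22.

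The remaining receptors of macrophages and endothelium are Mrc1, Cd163 and Stab1. Their levels varied together between tumors of a group, least closely Stab1 with Cd163 (within-group r = 0.765, explained below). Other pairs of receptors, such as Msr1 with Stab1 (0.944), did so as well, so this is not particular to these 3 genes. Their promoters are shown because sequences were available for them. Sequences come from RefSeq on GRCm38.p6, in which 4 of the 8 genes (these 3 and Marco) had an entry, and run 5′ to 3′ on the strand of the gene, from 250 bases before to 50 bases after the transcript start. Capitals mark matches to the motifs searched. The Stab1 window is chr14:31168592-31168891 (minus strand), that of Cd163 chr6:124304401-124304700 (plus strand) and that of Mrc1 chr2:14229164-14229463 (plus strand).
Stab1: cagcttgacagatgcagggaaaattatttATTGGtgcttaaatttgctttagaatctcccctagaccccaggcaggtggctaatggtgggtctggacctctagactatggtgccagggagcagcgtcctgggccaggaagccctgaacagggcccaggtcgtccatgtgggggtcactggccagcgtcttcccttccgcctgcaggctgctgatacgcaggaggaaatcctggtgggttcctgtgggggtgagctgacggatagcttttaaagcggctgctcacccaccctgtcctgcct
Cd163: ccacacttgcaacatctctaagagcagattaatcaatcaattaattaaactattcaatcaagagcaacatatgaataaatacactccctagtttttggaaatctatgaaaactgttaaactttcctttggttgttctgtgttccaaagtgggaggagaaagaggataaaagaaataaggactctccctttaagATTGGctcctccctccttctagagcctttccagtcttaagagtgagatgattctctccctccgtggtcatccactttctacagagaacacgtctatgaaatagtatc
Mrc1: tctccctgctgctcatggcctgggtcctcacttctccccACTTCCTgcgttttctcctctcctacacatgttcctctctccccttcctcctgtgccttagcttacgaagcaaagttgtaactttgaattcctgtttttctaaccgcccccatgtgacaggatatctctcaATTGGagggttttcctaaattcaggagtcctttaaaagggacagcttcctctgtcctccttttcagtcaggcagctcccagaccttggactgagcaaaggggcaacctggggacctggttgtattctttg
Of 7 motifs searched on both strands, the CCAAT box was found in all 3 windows, each time on the opposite strand as ATTGG, with its first base at position -221 in Stab1, -57 in Cd163 and -80 in Mrc1. Of 27025 promoters of the same length, 37.9% held CCAAT. The ETS motif AGGAAGT was found once, in Mrc1 on the opposite strand as ACTTCCT at position -211, and 9.57% of promoters held it. No 2 matches overlapped. The interferon-related GAS (TTCNNNGAA, in 8.47% of promoters) and ISRE (TTTC, 2 bases of any kind, TTTC, 3.49%), the AP-1 motif TGANTCA (7.93%), the TATA box TATAAA (14.2%) and the E-box CACGTG (7.24%) had no match in these windows, and the Marco window had no match to any of the 7. The windows were 57.3% G+C with 7 CpG in Stab1, 50.3% with 3 in Mrc1 and 38.0% with 2 in Cd163, beside medians of 52.7% and 7 over all promoters.

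Mrc1 (chromosome 2, 14229392 to 14332057, plus strand) was at 43.1, 99.6, 43.6, 114.0 and 62.1 CPM in WT tumors 2 to 6 and at 41.8, 24.9, 27.3, 26.3 and 34.5 CPM in D69A tumors 1 to 5. D69A tumor 1 nearly reached WT tumors 2 and 4, and WT tumors 3 and 5 were far above the others. The means of 72.5 ± 32.6 and 31.0 ± 7.10 CPM (SD over n = 5 per group) differed by 2.34-fold, with a log2 fold change of -1.23 and an SE of 0.29.

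Cd163 (chromosome 6, 124304656 to 124330527, plus strand) was at 5.01, 14.1, 3.51, 30.7 and 6.43 CPM in the WT group and at 2.86, 1.42, 3.36, 1.45 and 3.50 CPM in D69A tumors. The groups were apart by a hair, since the lowest WT tumor had 3.506 and the highest D69A tumor 3.501 CPM, and WT tumor 5 carried much of the WT mean. The means were 11.9 ± 11.2 and 2.52 ± 1.02 CPM (SD over n = 5 per group; 4.74-fold lower in D69A, log2 fold change -2.24, SE 0.58). Without WT tumor 5 the log2 fold change was -1.49, or 2.81-fold lower, and with limma-voom the call was lost at a log2 fold change of -1.90.

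Stab1 (chromosome 14, 31139013 to 31168641, minus strand) was at 28.2, 62.4, 30.3, 55.8 and 33.5 CPM in the WT group and at 36.2, 23.5, 23.4, 26.8 and 27.7 CPM in D69A tumors. D69A tumor 1 exceeded WT tumors 2, 4 and 6, and the groups overlapped. The means were 42.0 ± 15.9 and 27.5 ± 5.23 CPM (SD over n = 5 per group; 1.53-fold lower in D69A, log2 fold change -0.61, SE 0.23). The gene was not called, and it was called with upper quartile scaling, with library size alone, with DESeq2 and in 4 of 10 leave-one-out fits (without WT tumor 2, 4 or 6, or D69A tumor 1). Of its exon length, 1.1% lies opposite Nt5dc2, and the use of strand in counting is not given in the sources used here.

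Scarb1 (chromosome 5, 125277087 to 125341094, minus strand) differed from the other receptors in direction and in spread. It was at 103.1, 87.5, 97.3, 98.7 and 98.8 CPM in the WT group and at 112.2, 141.9, 151.5, 131.4 and 129.1 CPM in D69A tumors. Every D69A tumor was above every WT tumor, D69A tumor 1 being the lowest of its group. The means were 97.1 ± 5.77 and 133.2 ± 14.8 CPM (SD over n = 5 per group; 1.37-fold higher in D69A, log2 fold change 0.46, SE 0.08). Its coefficient of variation was 5.9% in WT tumors, against 32.5% for Msr1, 37.7% for Stab1, 45.0% for Mrc1, 63.5% for Scara3, 71.2% for Marco, 92.7% for Scara5 and 94.1% for Cd163. In D69A tumors it was 11.1% for Scarb1 and between 18.9% and 77.1% for the others.

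**Figure D2:**
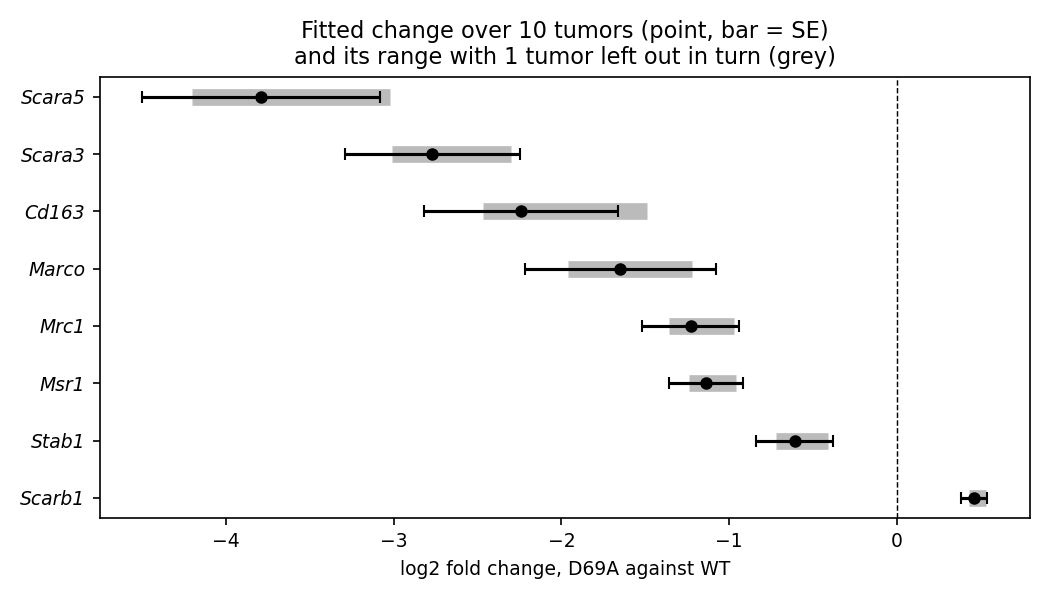
Log2 fold change of D69A against WT for each receptor gene from the fit over 10 tumors (points), with its SE (bars) and the range over the 10 fits that left out 1 tumor each (grey). The values run from -3.79 for Scara5 to 0.46 for Scarb1, and no range crosses 0.

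Per kilobase of exon, the scale on which genes can be compared, Scarb1 and Mrc1 led in WT tumors at 11.4 ± 0.68 and 11.4 ± 5.12 CPM per kb. Msr1 (5.05 ± 1.64), Stab1 (4.08 ± 1.54), Scara3 (3.85 ± 2.45), Scara5 (2.68 ± 2.48), Cd163 (2.19 ± 2.06) and Marco (0.962 ± 0.685) followed (SD over n = 5 per group). The tumor values of each neighbouring pair in this order overlapped. In D69A tumors Scarb1 was at 15.7 ± 1.74 CPM per kb, Mrc1 at 4.86 ± 1.12, Stab1 at 2.68 ± 0.509 and Msr1 at 2.29 ± 0.434. Scara3 (0.564 ± 0.342), Cd163 (0.461 ± 0.186), Marco (0.305 ± 0.160) and Scara5 (0.192 ± 0.148) came last. In the D69A order Scarb1 was above Mrc1, Mrc1 above Stab1 and Msr1 above Scara3 in all tumors, and the other neighbours overlapped. Scara5 was sixth of the receptors in WT and last in D69A tumors.

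The levels were next compared within groups, which sets aside the difference between them: each gene's log2 CPM was taken as the deviation from its group mean, and Pearson's r was computed over the 10 tumors. These r are descriptions without a p, and the tumors share a common mix of cells, so genes of 1 cell type vary together with genes of others. Scara5 and Scara3 had r = 0.97 (Spearman's rho 0.92). Without WT tumor 5 and D69A tumor 1, the 2 tumors in which Scara5 lay farthest from its group mean, r was 0.94. Stab1 with Mrc1 had r = 0.95 (rho 0.88), Msr1 with Stab1 0.94 (rho 0.92) and Cd163 with Mrc1 0.89 (rho 0.93). Pairs of a fibroblast and a macrophage receptor reached similar values: Scara3 had r = 0.89 with Cd163 (rho 0.81) and 0.87 with Mrc1 (rho 0.83), and Scara5 0.84 with each (rho 0.76 and 0.85). Scara5 and Msr1 were less alike, with r = 0.53 (rho 0.49), 0.43 without WT tumor 5 and 0.68 without D69A tumor 4. Scarb1 had negative r with all 7 other receptors, from -0.75 with Msr1 to -0.12 with Marco, where rho was 0.07.

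**Figure D3:**
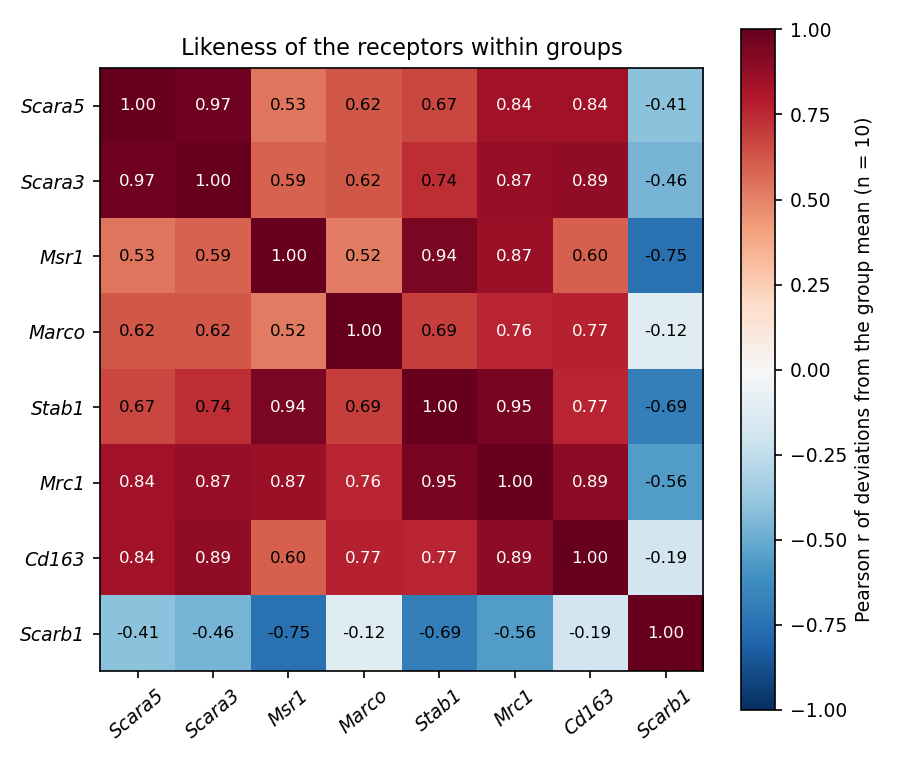
Pearson's r between receptor genes over 10 tumors, computed on deviations of log2 CPM from the group mean; red is positive and blue negative. The highest values are those of Scara5 with Scara3 (0.97), Stab1 with Mrc1 (0.95) and Msr1 with Stab1 (0.94), pairs such as Scara3 with Cd163 (0.89) come close, and Scarb1 is negative with each.

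Each receptor was also set against cell type marker lists, each taken as the mean of its markers' own deviations of log2 CPM. Scara5 and Scara3 had their highest r with adventitial fibroblast markers (0.92 and 0.94, with rho 0.93 and 0.90). Msr1 and Stab1 had it with macrophage markers (0.92 and 0.96; rho 0.94 and 0.90). Cd163 and Mrc1 had it with resident macrophage markers (0.97 and 0.95; rho 0.94 and 0.98), and so did Marco (0.83, rho 0.83). These lists were close to tied for some receptors: Scara3 had 0.93 and Scara5 0.89 with resident macrophage markers, and Mrc1 0.94 with adventitial fibroblast markers. Scarb1 was positive with pigment cell markers (0.53, rho 0.61, and 0.29 without its 2 farthest tumors) and negative with macrophage (-0.77), endothelial (-0.80) and fibroblast markers (-0.73). The members' levels thus moved with those of whole marker lists, and the part of each cell type in the receptor values was not tested.

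Among 12639 genes of at least 1 CPM, the 3 most like Scara5 were Sfrp4, a secreted Wnt antagonist (r = 0.985), Igfbp6, an insulin-like growth factor binding protein (0.981), and Efemp1, a matrix fibulin (0.980), and Scara3 ranked 8th. For Scara3 they were Pdia5, a protein disulfide isomerase (0.983), Sfrp4 (0.975) and Srpx (0.975). For Mrc1 they were Plat, tissue plasminogen activator (0.991), Siglec1, the sialoadhesin of macrophages (0.987), and Dab2, an endocytic adaptor (0.983). For Cd163 they were the lectin gene Cd209f (0.991), the transcription factor gene Klf4 (0.980) and Stxbp6 (0.975). Those of Msr1 were Gm14548 (0.974), Ch25h, cholesterol 25-hydroxylase (0.973), and Myo9b (0.968). Those of Stab1 were Git2 (0.977), Pctp (0.977) and Tk2 (0.973), those of Marco Chst11 (0.982), Usp25 (0.977) and Nat9 (0.966), and those of Scarb1 Gm773 (0.959), Gstm1 (0.957) and Cldn34c1 (0.952).

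To set each receptor beside the cells likely to carry it, its CPM was divided by the summed markers of a cell type in the same tumor. On the macrophage markers, the log2 ratio of Msr1 was -5.55 ± 0.21 in WT and -5.50 ± 0.17 in D69A tumors, and that of Mrc1 -4.43 ± 0.16 and -4.41 ± 0.21 (SD over n = 5 per group). Both thus differed by 0.05 or less, and the groups overlapped. Stab1 had log2 ratios of -5.18 ± 0.15 and -4.57 ± 0.09, higher in D69A by 0.61 with no overlap. Cd163 (-0.74) and Marco (-0.23) were lower in D69A with overlapping groups. These ratios carry the same contrast that chose the genes and were not tested.

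The macrophage sum holds Cd68, a lysosomal protein that was at 191.5 ± 36.0 CPM in the WT group and 206.8 ± 13.7 CPM in D69A tumors (SD over n = 5 per group), while 12 of the 14 markers fell. Cd68 made up 13.4% of the sum in WT and 32.4% in D69A tumors. With Cd68 left out, a choice made after seeing the data, the sum was 737.8 to 2054.1 CPM in the WT group and 332.3 to 641.6 CPM in D69A tumors. The log2 ratio was then higher in D69A by 0.97 for Stab1 and 0.38 for Mrc1, without overlap, and by 0.41 for Msr1 and 0.13 for Marco, with overlap, and lower for Cd163 (-0.37, overlap). For Mrc1 the groups were barely apart, at -4.096 in WT tumor 2 and -4.089 in D69A tumor 4. Leaving out Cd68, the larger share of the sum in D69A tumors, by itself raises every ratio more in that group. Mertk, which did not fall either, was kept in the sum. Which sum follows macrophage number better was not tested. On the endothelial markers Stab1 differed by 0.12, with overlapping groups.

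Scara5 stayed lower in D69A relative to summed fibroblast markers, a sum led by Col3a1. The ratios that follow were not tested either, and they do not tell fewer cells of a fibroblast subset from less RNA per cell. Its log2 ratio to the 12 fibroblast markers was -8.52 ± 0.73 in WT and -10.25 ± 0.75 in D69A tumors (SD over n = 5 per group), a difference of -1.73 with no overlap. Scara3 differed by -0.74 on the same markers, where the groups overlapped. On 12 markers of adventitial fibroblasts, the subset found around vessels, the differences were -2.72 for Scara5 and -1.73 for Scara3, both with no overlap. That sum was led by Gsn, whose log2 fold change was only -0.48, and it went from 920.2 ± 313.2 to 420.4 ± 42.7 CPM (SD over n = 5 per group), while the median log2 fold change of its members was -2.47, beside -2.77 for Scara3 and -3.79 for Scara5. The ratio to the adventitial sum thus sets both receptors against a total that fell less than most of its members. Scarb1 relative to pigment cell markers was at -7.66 ± 0.13 and -7.74 ± 0.05 (SD over n = 5 per group), a difference of -0.08 with overlapping groups.

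**Figure D4:**
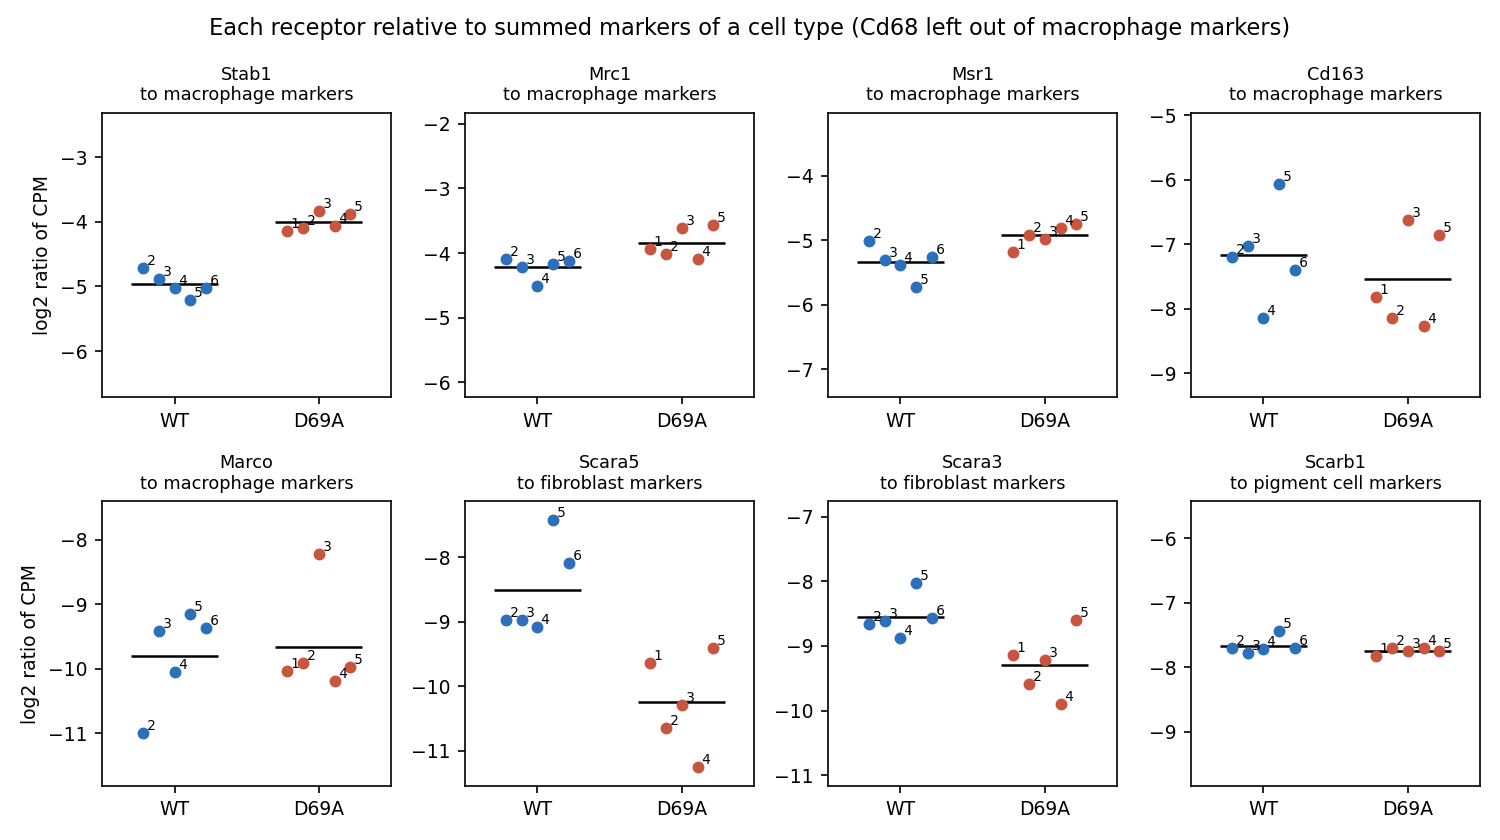
Log2 ratio of each receptor's CPM to the summed CPM of a marker list in the same tumor, with Cd68 left out of the macrophage list; points are tumors with their numbers and lines are group means (n = 5 each). Stab1 is higher in all D69A tumors, and so by a hair is Mrc1, whose groups overlap when Cd68 is kept in the list. Scara5 is lower in all D69A tumors, and Scarb1 differs by -0.08.

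Related genes from lists drawn up with earlier results of these data known were counted over the whole fit, with adjusted p from edgeR's quasi-likelihood test throughout. Of all 13798 tested genes, 24.7% were called lower and 18.8% higher. Genes named from a list are mainly those with the smallest p and do not stand for the whole list. Of 16 tested other scavenger receptors, 6 fell in D69A tumors, 1 rose and 9 did not pass, with a median log2 fold change of -0.96. Cd36, the fatty acid and thrombospondin receptor, fell from 58.5 ± 21.2 to 19.7 ± 5.29 CPM (log2 fold change -1.57, SE 0.26, adjusted p = 0.001181; SD over n = 5 per group). Cxcl16, a membrane chemokine that binds oxidized lipoprotein, fell 4.15-fold (adjusted p = 0.001403), and the soluble receptor gene Ssc5d 3.34-fold (adjusted p = 0.001582). Lgals3bp, a secreted protein with a scavenger receptor cysteine-rich domain, fell 2.05-fold (adjusted p = 0.0007248). Colec12, a collagen-like receptor related to Scara5 and Scara3 that was picked after its values were seen, fell 4.84-fold (adjusted p = 0.001637). Scarb2, the lysosomal relative of Scarb1, rose 1.2-fold (adjusted p = 0.01138). The count of falls was 10 without WT tumor 2 and 11 without D69A tumor 1. Beside this and the other 6 related lists, 12 of 14 macrophage markers fell, as did all 10 tested dendritic cell markers (summed CPM 192.4 to 653.9 in WT, 59.0 to 146.9 in D69A, median log2 fold change -2.45) and all 9 tested lymphocyte markers (38.9 to 101.5 and 8.2 to 24.9, median -2.76). No dendritic cell or lymphocyte marker was at 0 in all tumors, and the part of these cells in the 7 lists was not tested. Some genes are shared between lists, so the counts are not separate from each other. Among them, the macrophage markers C1qa and Mertk are also on the apoptotic cell list, and Cd68 is also among the other scavenger receptors.

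Of 16 tested relatives of the mannose receptor and other endocytic lectins, 15 fell and Lyve1 did not pass (log2 fold change -1.74, adjusted p = 0.05958), with a list median of -1.85. Ly75, the dendritic cell receptor DEC-205 and a close relative of Mrc1, fell from 32.4 ± 5.91 to 18.4 ± 2.58 CPM (SD over n = 5 per group; log2 fold change -0.81, adjusted p = 0.001224). Clec7a, the beta-glucan receptor dectin-1, fell 3.32-fold (adjusted p = 0.001206). Clec4a2 fell 3.51-fold (adjusted p = 0.0006866) and Clec4a3 4.84-fold (adjusted p = 0.001229), although reads of this family, like those of the Cd209 genes, may be split between near-identical copies. Mrc2, the collagen receptor Endo180 of fibroblasts, picked after its values were seen, fell 3.93-fold (adjusted p = 0.001984).

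Of 14 tested genes of haem and iron handling, 6 fell, 2 rose and 6 did not pass, and the median was -0.16. Over all tested genes 24.7% fell and 18.8% rose. Slc40a1, the iron exporter ferroportin, fell from 8.07 ± 1.62 to 3.91 ± 0.70 CPM (SD over n = 5 per group; log2 fold change -1.05, adjusted p = 0.001182). Slc11a1, the phagosomal metal transporter of macrophages, fell 3.36-fold (adjusted p = 0.001455). Tfrc, the transferrin receptor, rose from 330.1 ± 53.1 to 622.3 ± 81.4 CPM (log2 fold change 0.91, SE 0.12, adjusted p = 0.0006199), and Slc11a2, the iron importer of endosomes, rose 1.23-fold (adjusted p = 0.004181). The ferritin light chain gene Ftl1 was at 3822 ± 326 and 3874 ± 225 CPM (SD over n = 5 per group; adjusted p = 0.8529). Hmox1, the haem oxygenase that acts on haem delivered by Cd163, was at 317.3 ± 79.3 and 254.9 ± 62.8 CPM (adjusted p = 0.2012) and was named after its values were seen.

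Of 16 tested genes of lipoprotein uptake and cholesterol efflux, 6 fell, 2 rose and 8 did not pass, with a median of -0.24. The shares over all tested genes were 24.7% lower and 18.8% higher, 43.5% in all. Abcg1, which exports cholesterol to high-density lipoprotein, fell from 32.2 ± 12.2 to 6.87 ± 4.00 CPM (SD over n = 5 per group; log2 fold change -2.23, adjusted p = 0.001129). Nr1h3, the oxysterol receptor LXR-alpha, fell 5.55-fold (adjusted p = 0.001403) and the phospholipid transfer protein gene Pltp 3.15-fold (adjusted p = 0.001609). Npc1, the lysosomal cholesterol exporter, rose 1.34-fold (adjusted p = 0.001584), the direction in which Scarb1 differed. Apoe did not pass (log2 fold change -0.07, adjusted p = 0.4141).

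Of 19 tested genes for the uptake of apoptotic cells, 12 fell, 3 rose and 4 did not pass, with a median of -1.14, beside 24.7% lower and 18.8% higher over all tested genes. The receptor kinase gene Axl fell from 139.3 ± 33.3 to 63.1 ± 4.97 CPM (SD over n = 5 per group; log2 fold change -1.14, adjusted p = 0.0005241), the complement bridge C1qa 3.55-fold (adjusted p = 0.001477) and the small GTPase gene Rac2 4.56-fold (adjusted p = 0.0008532). Dock1, an exchange factor for Rac proteins, rose 1.67-fold (adjusted p = 0.0009064), as did Tyro3 1.63-fold (adjusted p = 0.003462) and the adaptor gene Gulp1 1.38-fold (adjusted p = 0.002947). Mertk, the uptake receptor of macrophages, was at 14.8 ± 1.92 and 14.3 ± 1.69 CPM (SD over n = 5 per group; adjusted p = 0.7436), and Itgav did not pass (log2 fold change 0.25, adjusted p = 0.08189).

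Of 15 tested macrophage transcription factors, 10 fell, Nfe2l2 rose (1.22-fold, adjusted p = 0.003439) and 4 did not pass, with a median of -1.57. Spi1, encoding PU.1, an ETS factor of the myeloid lineage, fell 4.26-fold (adjusted p = 0.0008561), Maf 3.48-fold (adjusted p = 0.001367), Cebpa 2.96-fold (adjusted p = 0.0009064) and Irf8, which is also on the dendritic cell list, 5.82-fold (adjusted p = 0.0009407). Zeb2 did not pass (log2 fold change 0.07, adjusted p = 0.6241). Of 15 tested cytokines, chemokines and receptors that act on macrophages, 14 fell and Il4 did not pass, with a median of -1.61. Csf1, the macrophage growth factor, fell from 73.6 ± 8.17 to 38.6 ± 6.92 CPM (SD over n = 5 per group; log2 fold change -0.93, SE 0.12, adjusted p = 0.0005241). Il10ra, through which interleukin 10 raises Cd163 in macrophages, fell 6.32-fold (adjusted p = 0.0006311), Csf2rb 4.55-fold (adjusted p = 0.0008423), the chemokine gene Ccl2 2.57-fold (adjusted p = 0.0008484) and Tgfbr2 1.39-fold (adjusted p = 0.02014).

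**Figure D5:**
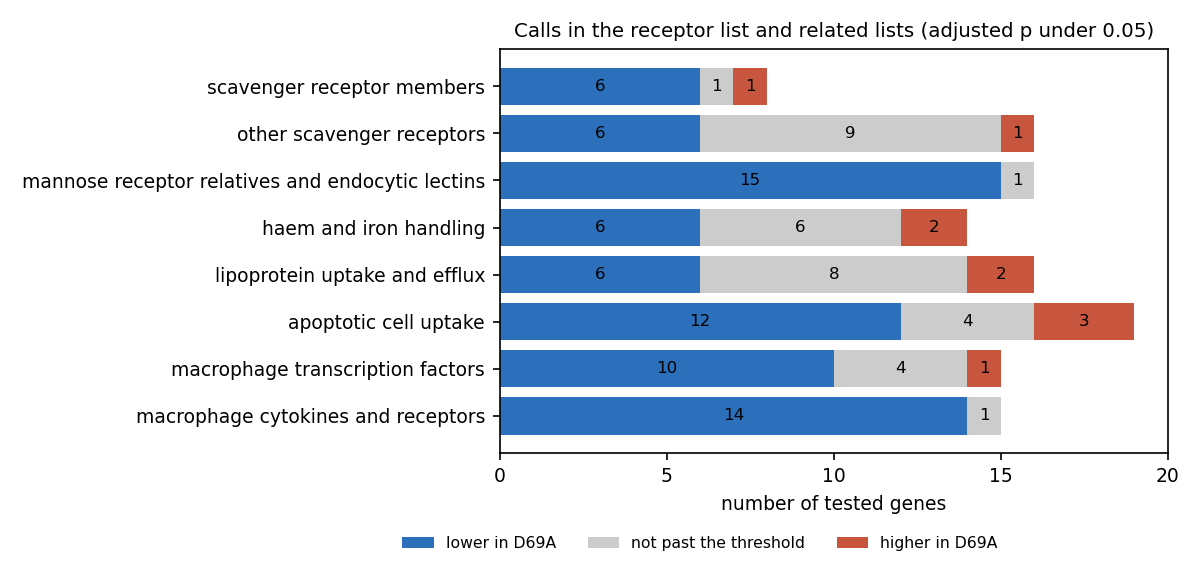
Number of tested genes lower (blue), not past the threshold (grey) or higher (red) in D69A tumors in 7 related lists, by edgeR's quasi-likelihood test at an adjusted p of 0.05; the top bar counts the 8 receptors in the same way, as a description, since they were chosen on this contrast. The lectin list (15 of 16) and the cytokine list (14 of 15) have the highest shares of falls, against 24.7% of all tested genes.

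Scara5 and Scara3 lie 154.6 kb apart on chromosome 14, and position was not used in choosing them. The 3 tested genes between them differed far less, and in both directions: the mitotic kinase gene Pbk rose (log2 fold change 0.42, adjusted p = 0.03286), Esco2, an acetyltransferase of cohesin, rose (0.37, adjusted p = 0.02513), and Ccdc25 fell by little (-0.21, adjusted p = 0.03118). Nuggc, 17.9 kb from Scara5 on its other side, did not pass (0.02, adjusted p = 0.9782), while Clu, encoding the chaperone clusterin 14.5 kb beyond Scara3, fell from 5.98 to 1.71 mean CPM (-1.80, SE 0.28, adjusted p = 0.0009109). Of 45 distinct tested neighbours of the 8 receptors, 3 on each side, 11 fell, 12 rose and 22 did not pass, where 24.7% of all tested genes fell and 18.8% rose. Stab1 adjoins Nisch (0.07, adjusted p = 0.2854) and Nt5dc2, which rose (0.62, adjusted p = 0.00584). The nearest tested genes before Cd163, the lectin genes Clec4e, Clec4d and Clec4n, more than 1 Mb away, fell by 1.09, 1.08 and 1.33 on the log2 scale (adjusted p = 0.03503, 0.003994 and 0.01368).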

How the data were processed

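RNA from 10 tumors, 5 per group, was sequenced in bulk. The deposited table holds whole-number counts per Ensembl gene made by the authors. Per the submitters' processing notes, fastp, HISAT, Bowtie, RSEM and the mm10 build were used, and for their roles, versions and strand setting the sources used here give nothing. RSEM estimates counts and may divide reads among near-identical genes. Of 17737 genes, 40 had 0 in all tumors, and 17670 identifiers matched a symbol in GENCODE mouse release M21 while 67 did not. No value column remained unassigned. Tumors of a group differed by more than counting noise (smallest chi-square per degree of freedom 13.9), and each counts as 1 replicate. With 25904345 to 37578722 counts per library, a floor of 3 counts is 0.0798 to 0.1158 CPM, for counting error only.

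Genes were filtered with filterByExpr, scaled by TMM and compared with edgeR's quasi-likelihood test (edgeR 4.0.16, R 4.3.3) over 13798 genes, with Benjamini-Hochberg adjustment and a threshold of 0.05. SEs come from the F statistic. The procedure was also run on simulated data in which far fewer genes changed than were called here, so that run does not cover a shift this broad. CPM use TMM factors, and CPM per kb the union of exons. Likeness is Pearson's r of log2 CPM (prior count 2) minus the group mean, over genes of at least 1 CPM. For marker lists, r was computed with the mean of the markers' own deviations, while ratios used summed CPM.

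The members and lists were chosen with earlier results of these data known. Named are all 8 members, up to 4 genes per list with the smallest p and the one with the highest CPM, the 3 nearest genes by likeness, and neighbours. Of marker lists, only the gene with the highest CPM was to be named. Colec12, Mrc2, Hmox1, Cd68, Mertk, Scarb2, Tyro3, Gulp1, Nfe2l2, Lyve1 and Il4 were named outside these rules, after their values were seen. The same holds for Prox1, Stab2, Adipoq, Lep, Plin1, Retn, Pck1 and Acvr1c of the marker lists. Protein sequences are not used here, and 1 gene of the lipoprotein list is not reported here by name. Alternatives were RLE and upper quartile scaling, library size alone, other filters, DESeq2 1.42.0, limma-voom (limma 3.58.1), the replicate number as a block, other prior counts and leave-one-out fits. Ratios to other marker sums, and a fit that drops the 3 tumors with the most muscle marker RNA, were added after the data were seen.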

Additional observations from a re-analysis of the deposited data

Results flagged for a closer look

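In 9 of 74 groups of 5 values (12.2%), 1 tumor stood apart from the other 4 by Dixon's criterion, which chance alone meets in about 1 in 20 groups. Scara5 was at 42.46 CPM in WT tumor 5, while the other WT tumors lay between 5.813 and 14.61 CPM. D69A tumor 1 stood above its group in summed skeletal muscle markers (739.4 CPM, the others 16.1 to 147.7), dendritic cell markers (146.9 CPM, the others 58.99 to 78.16) and lymphocyte markers (24.86 CPM, the others 8.224 to 12.42). The log2 ratio of Marco to macrophage markers was -8.983 in D69A tumor 3 against -10.73 to -10.43 in the others, and with Cd68 left out -8.224 against -10.19 to -9.912. The log2 ratio of Mrc1 to macrophage markers was -4.717 in WT tumor 4 against -4.382 to -4.324 in the others, and with Cd68 left out -4.502 against -4.211 to -4.096. The log2 ratio of Scarb1 to pigment cell markers was -7.443 in WT tumor 5 against -7.773 to -7.693 in the others.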

How the results depend on the processing

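No receptor changed direction under any setting run. Outside the fits that left out 1 tumor, log2 fold changes ranged from -4.57 to -3.72 for Scara5, -3.16 to -2.75 for Scara3, -1.21 to -1.10 for Msr1 and 0.41 to 0.52 for Scarb1. The number of receptors called lower lay between 4 with limma-voom, which lost Marco and Cd163, and 7 with upper quartile scaling, library size alone or DESeq2, which added Stab1. With 1 tumor left out it was 5 to 7, and the other scavenger receptors called lower numbered 6 to 11 (10 without WT tumor 2, 11 without D69A tumor 1). The within-group r of Scara5 and Msr1 ranged from 0.43 to 0.68 with 1 tumor left out. Without the 3 tumors highest in muscle markers (WT tumors 3 and 4 and D69A tumor 1), 1727 genes were called higher in place of 2594, 2615 lower in place of 3410, and 5 receptors lower, Marco being lost; fewer tumors entered that fit. The filter of 1 CPM in 5 tumors left Marco untested. No scaling or filter moved the median of all genes beyond -0.064 on the log2 scale. Replicate numbers 2 to 5 occur in both groups. Same-numbered tumors correlated at 0.177, -0.417, 0.203 and 0.167 over the tested genes, with 1 of 4 WT tumors closest to its own number. These values do not show that the numbers pair the tumors and cannot exclude it, and the labels state no pairing. With the replicate number as a block, 3218 genes were called lower and 2246 higher, and 6 receptors lower, with Stab1 gained (log2 fold change -0.72) and Marco lost (-1.43). The block lowered the SE of Scara5 from 0.707 to 0.193, of Scara3 from 0.516 to 0.138 and of Cd163 from 0.583 to 0.315. It changed less for Mrc1, Marco and Stab1, and rose for Msr1 (0.215 to 0.264) and Scarb1 (0.079 to 0.085). The cause of these shifts was not tested. Low counts limit Marco and, in D69A tumors, Scara5.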

Other observations

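Some marker lists were not described beside the receptors. Of 7 tested markers of lymphatic and sinusoidal endothelium, 3 fell in D69A tumors and 1 rose. Fcgr2b, the inhibitory Fc receptor of sinusoids and myeloid cells, fell from 49.3 ± 21.5 to 15.5 ± 3.67 CPM (SD over n = 5 per group; log2 fold change -1.67, edgeR's quasi-likelihood test, adjusted p = 0.001226). Prox1, the transcription factor of lymphatic endothelium, rose from 5.62 ± 0.519 to 8.85 ± 0.581 CPM (SD over n = 5 per group; log2 fold change 0.65, adjusted p = 0.001032), with every D69A tumor above every WT tumor. Stab2, the relative of Stab1 in sinusoids, did not pass (log2 fold change -1.82, adjusted p = 0.07657) and was below 1 CPM in all tumors. All 6 tested adipocyte markers fell, with a median log2 fold change of -2.19, and Adipoq, Lep and Plin1 were too low to be tested.

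Pdia5, the gene most like Scara3 between tumors of a group, had mean levels of 27.9 CPM in the WT group and 30.1 CPM in D69A tumors and a log2 fold change of 0.11, while Scara3 was 6.8-fold lower. Git2 and Myo9b, near the top for Stab1 and Msr1, had log2 fold changes of -0.14 and -0.21. These 3 genes were picked for their small differences, and the other nearest genes of the same receptors had lower values. Those were -2.98 (Sfrp4) and -2.53 (Srpx) for Scara3, -2.15 (Pctp) and -0.41 (Tk2) for Stab1, and -1.96 (Gm14548) and -1.38 (Ch25h) for Msr1. For Scara5, Sfrp4, Igfbp6 and Efemp1 were at -2.98, -3.0 and -2.67.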
